A study of Mus musculus with 2 samples.

Results

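Interferon-signature induced macrophages were 382 cells, among 6837 barcodes of induced macrophages, that carried transcripts of 3 interferon-induced genes. A barcode was taken when it had at least 500 genes, at most 15% mitochondrial counts and at least 5000 counts, with summed counts of Ifit3, Rsad2 and Isg15 of at least 3 and at least 200 CPM, that is, per 1000000 of its counts. The limits on genes, mitochondrial counts and depth were met by 5207 barcodes, so that the 382 made up 7.34% of them, with an exact 95% binomial interval of 6.64% to 8.08%. They are called signature cells here and were set against the other 4825 cells that met the same limits, and the 3 genes that chose the cells were left out of all levels and totals.

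The cells are mouse induced macrophages (iMac), which the series title presents as fibroblasts reprogrammed with c-Myc and no further factor. Per the labels, a DNBelab C4 droplet system gave one library of cDNA and one of oligo, both of wild type cells and with no other agent named. Both groups of cells compared here come from one matrix of counts and, per these sources, share that genotype and the c-Myc induction. No source used here gives the strain, the culture time or the number of cultures. Whether the 2 groups came from the same cultures is therefore not known. The barcode names of the matrix carried no library and 0 names occurred more than once, so the matrix was treated as 1 sample. With no replicate there is no test: every comparison below is a description of these cells, and every interval covers counting error only.

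Type I interferons are secreted proteins that cells make after sensing foreign or displaced nucleic acid. They bind a shared receptor, whose kinases JAK1 and TYK2 activate transcription factors that join IRF9 on interferon-stimulated response elements (ISREs) in the promoters of many genes. Macrophages are known as strong producers of and responders to interferon, and subsets with such a signature are a common finding in single-cell surveys of macrophages.

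Most cells were chosen through Isg15, which codes for a ubiquitin-like protein. Isg15 stood at 551 CPM in the signature cells and at 20.1 CPM in the other cells. The antiviral enzyme gene Rsad2 was at 107 CPM in signature cells against 1.37 CPM in other cells. Ifit3, a gene of the IFIT family described below, was at 63.9 CPM in signature cells against 0.544 CPM in other cells. Isg15 was counted in 379 of the 382 cells, and 142 of them were chosen by Isg15 alone. Counts of 1, 2 or all 3 of the genes were found in 143, 119 and 120 cells. The 3 genes together reached a median of 477 CPM of each cell's total, from 202 at the lowest to 7330 at the highest. Of the other cells, 3431 had no count of the 3 genes and 38 passed 200 CPM with under 3 counts. Around the limit, the 52 cells at 200 to 250 CPM held 11685 CPM of the interferon genes described below, and the 93 cells at 150 to 200 CPM held 10556 CPM.

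Depth was close between the groups. The signature cells had a median of 25810 counts and 4038.5 genes, and the other cells 24430 counts and 3869 genes. The median mitochondrial share was 0.737% in signature cells and 0.589% in other cells, and ribosomal protein genes took 29.4% of pooled counts in signature cells against 32.6% in other cells. The part of these shares in the results was not tested. The share of cells meeting the rule lay between 4.8% and 8.85% when the cells were parted into 10 bins of depth, with no steady order, and between 6.36% and 8.16% among cells parted by the number written in their barcode names.

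The cells carried macrophage transcripts, as the name says. Tyrobp, the signalling adaptor of myeloid receptors, was counted in all 382 signature cells and in 4824 of the other cells. All 20 genes of a macrophage list were above 2 CPM. Of the markers of other cell types, 6 fibroblast genes summed to 1.58 CPM in signature cells and 2.89 CPM in other cells, with Pdgfra, Lox and Postn at 0 in the signature cells. The 6 T and NK cell genes summed to 3.07 CPM in signature cells against 1.43 CPM in other cells, 6 neutrophil genes to 7.71 CPM in signature cells against 9.23 CPM in other cells, and 7 conventional dendritic cell genes to 6.14 CPM in signature cells against 9.76 CPM in other cells. Plasmacytoid dendritic cells are known for their interferon output, and 6 of their genes summed to 94.4 CPM in signature cells against 85.4 CPM in other cells, of which Tcf4 gave 70.9 CPM and 63.9 CPM. Their defining marker Siglech was at 0.0876 CPM in signature cells against 0.103 CPM in other cells. The 6 B cell genes summed to 53.4 CPM in signature cells against 73.6 CPM in other cells, with Pax5, Ms4a1 and Cd79b at 0 in the signature cells, and the 7 endothelial genes to 14.7 CPM in signature cells against 6.76 CPM in other cells. The 4 erythroid genes summed to 0.351 CPM in signature cells against 0.45 CPM in other cells. Cd3e, Ncr1, Cd4, Clec9a, Xcr1, Gata1 and Hba-a1 were at 0 in the signature cells. Counts were also few in the other cells, with 1 of Cd3e, 3 of Cd4 and 3 of Clec9a, too few to show a difference. Other members of these lists were higher in signature cells: Lck at 2.45 CPM against 1.26 CPM in other cells and Blnk at 9.03 CPM against 4.70 CPM. Cd3d was at 0.614 CPM in signature cells against 0.131 CPM in other cells. Its 7 counts lay in 2 signature cells, with 6 in 1 of them, too few to show a difference. Ighm was lower, at 44.2 CPM in signature cells against 68.5 CPM in other cells. The part of the markers above 0 in the results was not tested.

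The promoters of the interferon genes that stood out furthest are shown first, because the ISRE is the element through which interferon signalling is known to act. The sequences are the 250 bases before the transcription start in RefSeq on GRCm38.p6, 5′ to 3′ on the gene's strand, with capitals marking matches to the ISRE core GAAANNGAAA on either strand. They belong to the 4 interferon-induced genes with the largest ratio between the groups. All 4 were under 2 CPM in other cells and passed the limit of 2 CPM over all cells only through the signature cells. Nothing is read from their rank. The windows are those of Cxcl10 (chr5:92348890-92349139, minus strand), Ifit1 (chr19:34640639-34640888, plus strand), the first of 2 starts of Ifit2 (chr19:34550444-34550693, plus strand) and Oasl1 (chr5:114922990-114923239, plus strand).
Cxcl10: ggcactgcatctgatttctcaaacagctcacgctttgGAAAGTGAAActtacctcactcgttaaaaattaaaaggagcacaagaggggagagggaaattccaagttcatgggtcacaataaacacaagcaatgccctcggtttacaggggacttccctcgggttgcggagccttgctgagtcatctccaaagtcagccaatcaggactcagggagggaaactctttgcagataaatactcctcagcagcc
Ifit1: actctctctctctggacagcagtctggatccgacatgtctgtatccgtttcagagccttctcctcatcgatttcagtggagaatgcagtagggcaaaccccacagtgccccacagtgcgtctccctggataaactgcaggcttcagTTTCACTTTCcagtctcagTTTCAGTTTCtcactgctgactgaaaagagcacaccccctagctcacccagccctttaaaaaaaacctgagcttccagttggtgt
Ifit2: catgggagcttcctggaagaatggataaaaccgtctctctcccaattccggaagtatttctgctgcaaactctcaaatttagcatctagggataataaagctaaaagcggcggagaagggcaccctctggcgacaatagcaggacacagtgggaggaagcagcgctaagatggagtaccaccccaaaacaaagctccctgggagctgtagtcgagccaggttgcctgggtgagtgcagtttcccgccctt
Oasl1: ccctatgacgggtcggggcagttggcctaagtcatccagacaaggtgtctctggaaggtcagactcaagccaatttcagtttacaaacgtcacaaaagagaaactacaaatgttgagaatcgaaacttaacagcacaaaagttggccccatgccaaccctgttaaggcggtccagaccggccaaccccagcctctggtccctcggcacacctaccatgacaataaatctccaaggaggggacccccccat

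The Cxcl10 window held 1 match, which begins 213 bases before the start. The Ifit1 window held 2 matches, at 104 and 85 bases before the start. Neither start of Ifit2 nor that of Oasl1 had these letters in its window, which says nothing of the factor itself. Among all 32851 promoter windows, 978 (2.98%) held the ISRE core on either strand. Of the interferon-induced genes at least 2-fold higher in signature cells, 21 of the 63 with a window held it (33.3%), and of those tested but under 2-fold, 11 of 46 did (23.9%). The 63 include genes that passed the 2 CPM limit only through the signature cells, such as Cxcl10 and Ifit1. Other genes at least 2-fold higher held it in 11 of 119 windows (9.24%), and genes at least 2-fold lower in 0 of 20. Of the 8024 tested genes with a window, 267 (3.33%) held it. A match is a run of letters and not a measured binding site.

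Levels were compared for 10035 genes at 2 CPM or more over all compared cells. The log2 ratio was that of the 2 pooled levels after 1 CPM was added to each, which understates the differences of low genes. By this measure 224 genes (2.23%) were at least 2-fold higher and 22 genes (0.219%) at least 2-fold lower in signature cells. The median of all tested genes was -0.04, with 44.7% of genes above 0. Since the cells were chosen on interferon genes in this same contrast, nothing is read from these counts beyond their size. The 12 lists of interferon-induced genes hold 191 symbols, of which 181 had a row and 135 were tested. Of the 135, 78 (57.8%) were at least 2-fold higher, 125 were above 0 and 0 were at least 2-fold lower, with a median log2 ratio of 1.18. Of the 9900 genes outside the lists, 146 (1.47%) were at least 2-fold higher. Summed, the 181 genes stood at 14605 CPM in signature cells and 7701 CPM in other cells. The 7 interferon-induced genes under 2 CPM in other cells (Cxcl10, Ifit1, Ifit2, Oasl1, Cmpk2, Isg20 and Ddx60) could pass the limit only where they were higher, so the same count without them was 71 of 128. Without any limit on the level, 95 of the 181 genes were at least 2-fold higher. For the families and lists described next, the shares over all genes are 2.23% at least 2-fold higher and 44.7% above 0.

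**Figure D1:**
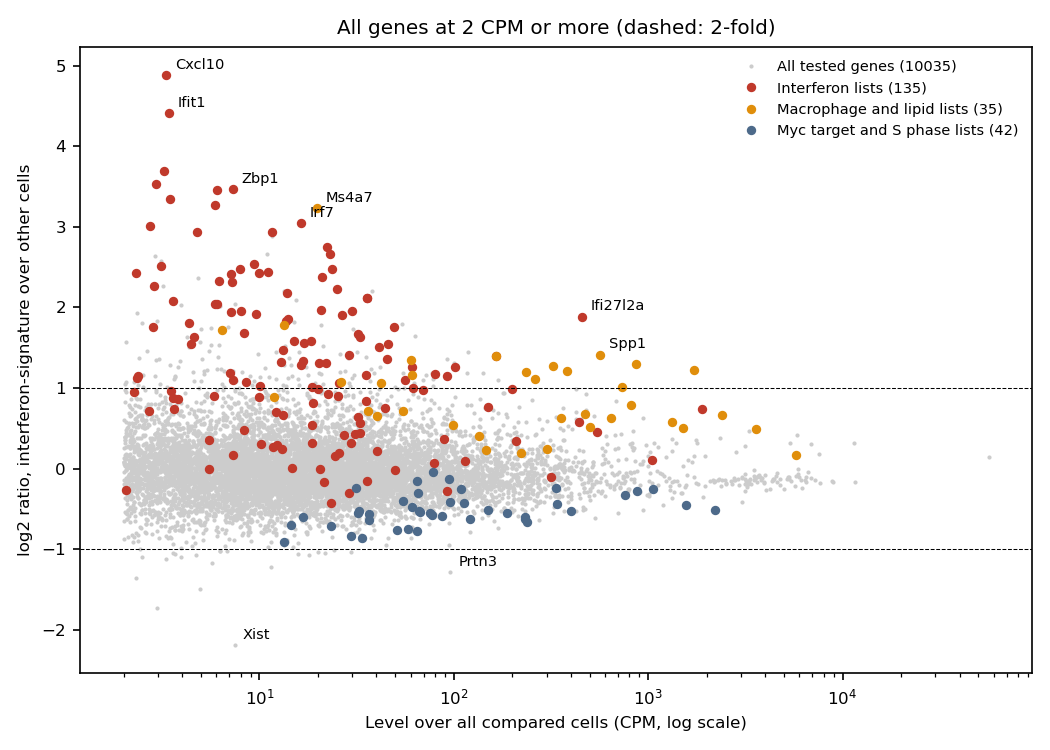
Log2 ratio of interferon-signature over other cells (vertical) against the level over all compared cells in CPM (horizontal, log scale) for the 10035 tested genes, with dashed lines at 2-fold. Genes of the interferon lists (red) reach a log2 ratio of 4.88 for Cxcl10, while Myc target and S phase genes (blue) lie below 0. Cxcl10 passed the 2 CPM limit only through the signature cells.

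Of 5 listed genes of the RNA-binding IFIT family, which blocks translation of viral RNA, 2 were tested. Both passed the 2 CPM limit only through the signature cells, and the rule gene Ifit3 belongs to the same family, so nothing is read from their median of 4.05. Ifit1 was at 37.1 CPM in signature cells (33.6 to 40.8) and 0.792 CPM in other cells (0.654 to 0.951), a log2 ratio of 4.41. Ifit2 was at 28.1 CPM in signature cells against 1.25 CPM in other cells, a log2 ratio of 3.69. Ifit1 was counted in 34.8% of signature cells and 2.01% of other cells. With every cell thinned to 5000 counts, the shares were 12.8% of signature cells and 0.394% of other cells. No cell type that lacks these genes was identified in this preparation, so the share that free RNA alone would give is not known. Ifit3b, a near copy of the rule gene Ifit3, was at 9.29 CPM in signature cells against 0.124 CPM in other cells and below the 2 CPM limit over all cells. Reads of such near copies may have been split between them.

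All 8 tested genes of the OAS family, sensors of double-stranded RNA with a partner, were above 0, and 6 were at least 2-fold higher. Oasl1 was at 24.6 CPM in signature cells against 1.22 CPM in other cells (log2 ratio 3.53), and the neighbouring gene Oasl2 was at 64.3 CPM in signature cells against 7.51 CPM in other cells (2.94). Oas3, Oas2, Oas1a and Oas1g followed with log2 ratios of 2.44, 1.54, 1.51 and 1.33. The Oas1 paralogs are alike in sequence, so the division between them is uncertain.

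Of 12 tested restriction factors, which block steps of viral replication, 4 were at least 2-fold higher. The exonuclease gene Isg20 was at 18.9 CPM in signature cells against 1.48 CPM in other cells, a log2 ratio of 3.01. It passed the 2 CPM limit only through the signature cells. Samd9l, Rnf213 and Eif2ak2, the last coding for the kinase PKR, had log2 ratios of 1.96, 1.55 and 1.16. Ifitm3, which keeps viruses from fusing with membranes, was at 3013 CPM in signature cells against 1805 CPM in other cells (0.74), and Bst2 was at 371 CPM in signature cells against 186 CPM in other cells (0.99). The chain that attaches and removes ISG15 was higher at each tested step. Its E1 enzyme gene Uba7 was at 17.7 CPM in signature cells against 7.85 CPM in other cells (1.08), its E2 gene Ube2l6 at 50.4 CPM in signature cells against 19.8 CPM in other cells (1.31), and its E3 gene Herc6 at 10.1 CPM in signature cells against 2.27 CPM in other cells (1.76). Usp18, which removes ISG15 and also dampens the interferon receptor, was at 43.7 CPM in signature cells against 3.06 CPM in other cells (3.46). Usp18 was counted in 49.2% of signature cells and 6.69% of other cells, or 16.5% of signature cells and 1.31% of other cells at 5000 counts.

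Transcription factors of the response differed in size from one another. Irf7, which amplifies interferon production, was at 92.9 CPM (87.4 to 98.7) in signature cells and 10.4 CPM (9.85 to 10.9) in other cells, a log2 ratio of 3.05. It was counted in 290 of the 382 cells (75.9%) and in 19.5% of other cells, or 36.1% of signature cells and 5.12% of other cells at 5000 counts. Stat2, which codes for a transcription factor of the receptor pathway, was at 43.8 CPM in signature cells against 7.35 CPM in other cells (2.42). Its partner Irf9 was at 20.5 CPM in signature cells against 12.6 CPM in other cells (0.66). Sp100, Ifi35, Irf1 and Sp110 had log2 ratios of 1.97, 1.27, 1.18 and 1.02, so that 7 of 15 tested factors were at least 2-fold higher. Irf3, which is known to act before interferon is made and is not itself a typical interferon target, was at 23.6 CPM in signature cells against 29.3 CPM in other cells (-0.30), and the myeloid factor Irf8 was at 121 CPM in signature cells against 114 CPM in other cells (0.09).

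Of 15 tested nucleic acid sensors and adaptors, 6 were at least 2-fold higher. Zbp1, a sensor of Z-form nucleic acid, was at 52.0 CPM in signature cells against 3.77 CPM in other cells, a log2 ratio of 3.47. Ddx58, which codes for RIG-I, was at 32.1 CPM in signature cells against 5.21 CPM in other cells (2.41), Ifih1 for MDA5 at 22.8 CPM in signature cells against 4.77 CPM in other cells (2.04) and Dhx58 for LGP2 at 32.5 CPM in signature cells against 7.83 CPM in other cells (1.92). Ddx60 and Znfx1 had log2 ratios of 2.42 and 1.58. The DNA sensor gene Cgas was at 29.3 CPM in signature cells against 25.5 CPM in other cells (0.19). Of genes that relay the signal, Mavs was at 15.3 CPM in signature cells against 12.8 CPM in other cells (0.24). Tmem173, which codes for STING, was lower, at 17.5 CPM in signature cells against 23.9 CPM in other cells (-0.42). The endosomal receptor gene Tlr7 was at 48.7 CPM in signature cells against 30.9 CPM in other cells (0.64), and its chaperone Unc93b1 at 113 CPM in signature cells against 87.5 CPM in other cells (0.37).

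The IFI200 genes, whose proteins bind DNA, form a cluster on chromosome 1. Of the 8 tested, 7 were at least 2-fold higher. They ran from Ifi209 at 28.7 CPM in signature cells against 2.88 CPM in other cells (2.94) and Ifi204 at 109 CPM in signature cells against 16.3 CPM in other cells (2.66) through Ifi211, Ifi202b, Ifi203 and Mndal to Ifi207 at 69.5 CPM in signature cells against 25.6 CPM in other cells (1.41). Aim2, the inflammasome sensor of the same family, was at 27.1 CPM in signature cells against 24.1 CPM in other cells (0.16). All 5 tested genes of the guanylate-binding and immunity-related GTPases, which attack membranes around intracellular pathogens, were at least 2-fold higher, with log2 ratios of 2.48 for Ifi47, 2.26 for Irgm2, 2.08 for Gbp7, 2.04 for Igtp and 1.86 for Irgm1. Irgm2 and Igtp overlap on the same strand, and 13 further genes of this list lay under the 2 CPM limit. Gbp2 among these was at 5.43 CPM in signature cells against 0.606 CPM in other cells. In these gene clusters of near copies the division of reads is uncertain.

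Of 10 tested Trim and Schlafen genes, 4 were at least 2-fold higher. Slfn5 was at 110 CPM in signature cells against 15.4 CPM in other cells (2.76), Trim30a at 97.8 CPM in signature cells against 24.5 CPM in other cells (1.96) and Slfn2 at 222 CPM in signature cells against 92.2 CPM in other cells (1.26), with Slfn8 at a log2 ratio of 1.81. Of 7 tested genes for ADP-ribosyltransferases and partners, 6 passed 2-fold, led by Parp14 at 127 CPM in signature cells against 28.7 CPM in other cells (2.11), Parp12 (1.83) and Parp9 (1.55). Parp10, Dtx3l and Parp11 followed with 1.47, 1.28 and 1.15. Parp9 and Dtx3l overlap on opposite strands, and the sources used here do not say whether counting used strand.

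A further list of 44 tested interferon-induced genes held 23 at least 2-fold higher. Cmpk2, a nucleotide kinase gene that lies beside Rsad2 on chromosome 12, was at 26.1 CPM in signature cells against 1.67 CPM in other cells (3.34). Ifi27l2a stood at 1413 CPM in signature cells against 381 CPM in other cells (1.89) and was counted in 96.3% of signature cells and 83.8% of other cells. The receptor-transport gene Rtp4 was at 102 CPM in signature cells against 17.5 CPM in other cells (2.48), and the apoptosis factor gene Xaf1 at 94.8 CPM in signature cells against 19.5 CPM in other cells (2.22). Phf11d, Ms4a4b, Ly6a and Phf11b had log2 ratios of 2.53, 2.51, 2.33 and 2.32. Lgals9, Casp4, Tor3a, Helz2 and Epsti1 lay between 1.76 and 1.58, and Fcgr1, Tap1, Daxx, Lgals3bp and Ms4a6c between 1.40 and 1.15. Ccrl2, Psmb9, Pml, Ms4a6b and Mov10 lay between 1.12 and 1.03. Some genes of the list were near level or lower: Lap3 was at 49.6 CPM in signature cells against 50.2 CPM in other cells, Tlr2 at 20.5 CPM in signature cells against 20.6 CPM in other cells, and Ifi27 at 77.0 CPM in signature cells against 93.8 CPM in other cells (-0.28).

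**Figure D2:**
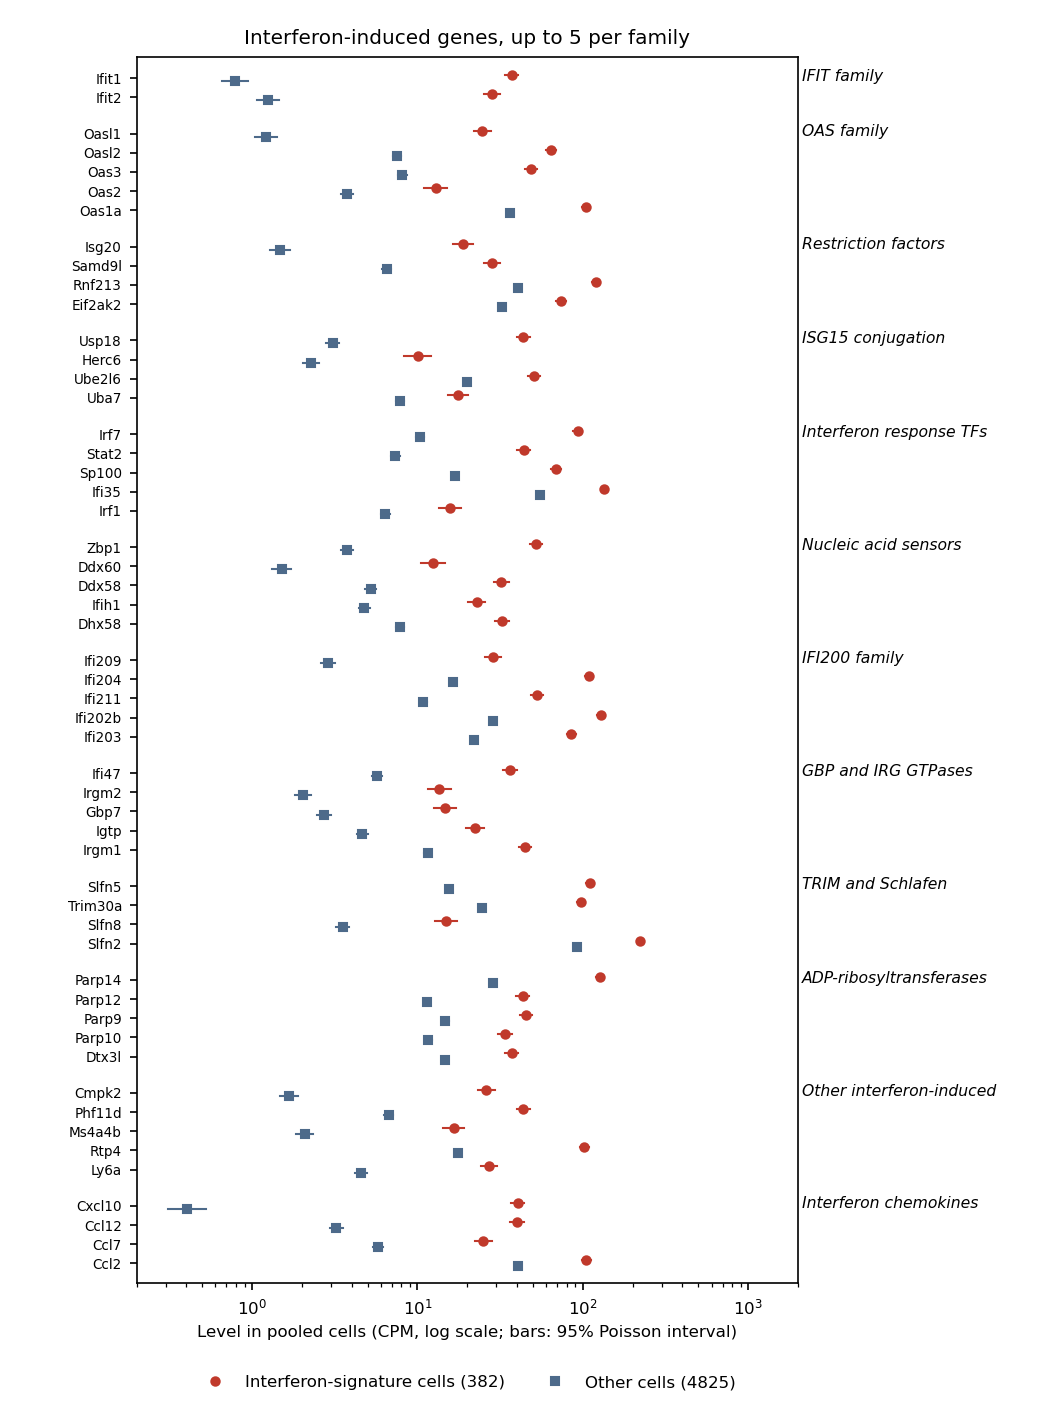
Levels of interferon-induced genes in CPM (horizontal, log scale) in the 382 signature cells (red circles) and the 4825 other cells (blue squares), up to 5 genes per family at least 2-fold higher, with bars for exact 95% Poisson intervals. The groups lie furthest apart for Cxcl10 and Ifit1 and closer together for genes such as Slfn2, at 222 CPM in signature cells against 92.2 CPM in other cells. Nothing is read from the place of Cxcl10 and Ifit1, which passed the 2 CPM limit only through the signature cells.

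All 4 tested interferon chemokines, which draw monocytes and lymphocytes, were at least 2-fold higher, and the counts of Cxcl10 and Ccl7 sat mostly in 10 cells each. Cxcl10 was at 40.4 CPM (36.8 to 44.3) in signature cells and 0.406 CPM (0.309 to 0.524) in other cells, a log2 ratio of 4.88. It passed the 2 CPM limit only through the signature cells, so nothing is read from this ratio or its rank. It was counted in 40 of the 382 cells (10.5%) and in 44 of the 4825 other cells (0.912%), or 6.54% of signature cells and 0.228% of other cells at 5000 counts. The 10 signature cells with most Cxcl10 held 82.2% of its counts there, and without these 10 cells the level was 7.49 CPM. Ccl12 was at 40.0 CPM in signature cells against 3.23 CPM in other cells (3.28) with 46.3% of its counts in 10 cells. Ccl7 was at 25 CPM in signature cells against 5.78 CPM in other cells (1.94) with 65.6% of its counts in 10 cells. Ccl2 was at 105 CPM in signature cells against 40.4 CPM in other cells (1.36) and was more widely spread, with a count in 175 of the 382 cells (45.8%) and 30.2% of its counts in 10 cells. The 10 highest cells held 14.2% of the Irf7 counts, so this transcript was spread over most of the group.

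Of the interferon genes themselves, 2 of 21 symbols searched had a row. Ifnb1, the gene of interferon beta, had 10 counts in all 6837 barcodes, and all 10 lay in 1 signature cell. The 4825 other cells had 0, for which the limit is a share of 0.0622% with a count. That cell had 31052 counts and ranked 4 by counts of the rule genes. It also held 136 counts of Cxcl10, the most of any signature cell, with 70 in the next cell. It carried 94 counts of Rsad2, 52 of Ccl4, 27 of Ifit1, 25 of Ccl2, 19 of Tnip3 and 4 of Irf7, and 0 of Tnf, Il6 and Ccl5. Without it Cxcl10 stood at 28.6 CPM in signature cells.

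Receptors and kinases that read interferon were near level. All 8 tested were above 0, beside 44.7% of all genes, and none reached 2-fold, with a median log2 ratio of 0.33. The type I receptor genes Ifnar1 and Ifnar2 were at 30.5 CPM in signature cells against 23.4 CPM in other cells (0.37) and 104 CPM in signature cells against 83.6 CPM in other cells (0.31). Il10rb, a receptor chain shared by interleukin 10 and type III interferons, was the highest in ratio at 40.1 CPM in signature cells against 23.3 CPM in other cells (0.76), followed by Jak2 at 7.36 CPM in signature cells against 4.55 CPM in other cells (0.59). Of 6 tested inhibitors of the pathway, none reached 2-fold, and the median was 0.04. The phosphatase gene Ptpn6 was at 287 CPM in signature cells against 289 CPM in other cells and Socs3 at 4.12 CPM in signature cells against 4.74 CPM in other cells (-0.16). Socs1, a known target of interferon gamma, was at 3.77 CPM in signature cells against 1.48 CPM in other cells and below the limit over all cells.

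**Figure D3:**
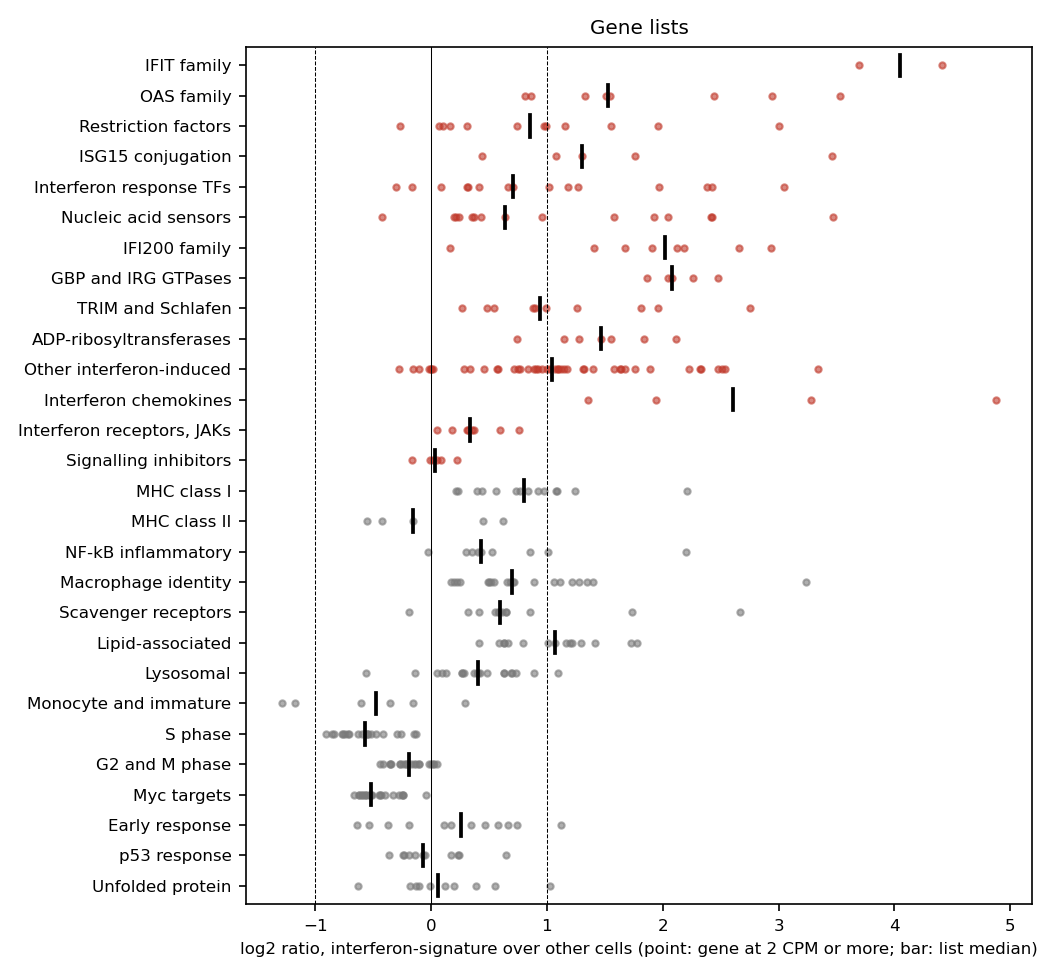
Log2 ratio of interferon-signature over other cells for each tested gene (points) and its list median (black bar), with dashed lines at 2-fold; interferon lists are red and other lists grey. List medians run from 4.05 for the IFIT family down to -0.57 for S phase genes, with receptors at 0.33 and signalling inhibitors at 0.04. Nothing is read from the IFIT median, since its 2 tested genes passed the 2 CPM limit only through the signature cells.

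Genes of class I antigen presentation stood higher, and those of class II differed in direction among themselves. All 14 tested class I genes were above 0, beside 44.7% of all genes, and 4 were at least 2-fold higher, beside 2.23%. H2-T23, a nonclassical class I gene, was at 51.6 CPM in signature cells against 10.4 CPM in other cells (2.21), and H2-T22, H2-M3 and the loading factor Tapbp had log2 ratios of 1.24, 1.09 and 1.08. B2m, the light chain, was at 1146 CPM in signature cells against 643 CPM in other cells (0.83). Of 5 tested class II genes, 2 were above 0, beside 44.7% of all genes, and 3 were below 0. The protease gene Ctss was at 664 CPM in signature cells against 432 CPM in other cells (0.62). H2-DMb1 was at 8.24 CPM in signature cells against 5.76 CPM in other cells (0.45). The invariant chain gene Cd74 was lower, at 34.6 CPM in signature cells against 51.4 CPM in other cells (-0.56). The class II median was -0.16, but it lay between -0.69 and 0.71 under other settings, with 0.71 where cells were chosen by Ifit3 and Rsad2. Summed, the 10 class II genes stood at 717 CPM in signature cells against 502 CPM in other cells, mostly from Ctss. H2-Ab1 and Ciita, the class II chain and its activator, had 0 counts in the signature cells and 2 and 1 counts in the other cells, too few to show a difference.

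Inflammatory genes under NF-kB differed less. Of 9 tested, 2 were at least 2-fold higher, beside 2.23% of all genes, with a median log2 ratio of 0.43. The chemokine Ccl4 was at 141 CPM in signature cells against 29.7 CPM in other cells (2.20), with 45.3% of its counts in 10 cells, and Ccl3 at 94.0 CPM in signature cells against 46.2 CPM in other cells (1.01). Tnf was at 6.49 CPM in signature cells against 4.66 CPM in other cells (0.40). Il1b, Il6 and Nos2, marks of strongly activated macrophages, had 0 counts in the signature cells and 1 count each in the other cells, too few to show a difference.

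The signature cells were also higher in genes of mature macrophages. All 20 tested macrophage genes were above 0, beside 44.7% of all genes, with a median of 0.69. Of the 20, 7 were at least 2-fold higher, beside 2.23% of all genes. Ms4a7, a tetraspan membrane protein gene of mature macrophages, was at 121 CPM (115 to 127) in signature cells against 11.9 CPM (11.4 to 12.5) in other cells, a log2 ratio of 3.24, and was counted in 42.7% of signature cells against 13.3% of other cells. At 5000 counts these shares were 25.4% of signature cells and 4.15% of other cells. The folate receptor gene Folr2, a mark of resident macrophages that is in no list, was at 62.8 CPM in signature cells against 7.62 CPM in other cells (2.89). Of its signature-cell counts, 43.3% lay in 10 cells. The high-affinity antibody receptor gene Fcgr1, which is in both the macrophage and an interferon list, the mannose receptor gene Mrc1 and the complement genes C1qa, C1qc and C1qb had log2 ratios of 1.40, 1.34, 1.28, 1.22 and 1.11. Aif1 had 1.06. Genes that all macrophages share were closer: Tyrobp was at 6392 CPM in signature cells against 5677 CPM in other cells (0.17) and Csf1r, the CSF-1 receptor gene, at 169 CPM in signature cells against 144 CPM in other cells (0.23).

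Genes of uptake and lipid handling followed the same direction in the pooled cells, and values by Ms4a7 or Folr2 count are given below. Of 12 tested scavenger and uptake receptors, 11 were above 0, beside 44.7% of all genes, with a median of 0.60. The antibody receptor gene Fcgr4 was at 53.5 CPM in signature cells against 7.57 CPM in other cells (2.67) and the fatty acid receptor gene Cd36 at 88.3 CPM in signature cells against 25.8 CPM in other cells (1.73), while Scarb1 was at 60.0 CPM in signature cells against 68.6 CPM in other cells (-0.19). All 15 lipid-associated genes were above 0, with a median of 1.07, and 9 were at least 2-fold higher, beside 2.23% of all genes. Fabp4 was at 40.9 CPM in signature cells against 11.2 CPM in other cells (1.78) and the cholesterol exporter gene Abca1 at 19.98 CPM in signature cells against 5.34 CPM in other cells (1.73). Of the Fabp4 counts in signature cells, 46.0% lay in 10 cells. Spp1, which codes for osteopontin, was at 1350 CPM in signature cells against 506 CPM in other cells (1.41), Ctsb at 1928 CPM in signature cells against 785 CPM in other cells (1.30), and the lipid carrier gene Apoe at 3639 CPM in signature cells against 1561 CPM in other cells (1.22). Of 20 lysosomal genes, 18 were above 0, beside 44.7% of all genes, with a median of 0.40, and 1 passed 2-fold.

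Growth genes pointed the other way. All 22 Myc target genes, which serve ribosome building and metabolism, were below 0, beside 55.3% of all genes, with a median of -0.52, and none was 2-fold lower. Srm, an enzyme gene of polyamine synthesis, was at 153 CPM in signature cells against 244 CPM in other cells (-0.67), Nop58 at 155 CPM in signature cells against 240 CPM in other cells (-0.63), and the nucleolar protein gene Ncl at 1578 CPM in signature cells against 2254 CPM in other cells (-0.51). Myc itself was at 29.2 CPM (26.1 to 32.5) in signature cells against 40.6 CPM (39.5 to 41.6) in other cells, a log2 ratio of -0.46. Counts of the introduced and the resident Myc gene cannot be told apart in this table. All 20 S phase genes were below 0, beside 55.3% of all genes, with a median of -0.57. Dtl was at 6.92 CPM in signature cells against 13.9 CPM in other cells (-0.91), Cdc45 at 18.9 CPM in signature cells against 35.1 CPM in other cells (-0.86) and Mcm4 at 16.7 CPM in signature cells against 30.6 CPM in other cells (-0.84). The G2 and M phase genes had a median of -0.19, with Top2a at 86.9 CPM in signature cells against 116 CPM in other cells (-0.42) and Ube2c at 188 CPM in signature cells against 186 CPM in other cells (0.02). Top2a was counted in 42.9% of signature cells and 59.2% of other cells, or 22% of signature cells and 29.5% of other cells at 5000 counts, so cells of the signature were not without mitotic transcripts.

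Most tested genes of immature myeloid cells were lower. Of 6 tested, 5 were below 0, beside 55.3% of all genes, and 2 were among the 22 genes (0.219% of all) at least 2-fold lower. Prtn3, the gene of a granule protease of promyelocytes, was at 40.5 CPM (36.9 to 44.4) in signature cells and 100.5 CPM (98.9 to 102) in other cells, a log2 ratio of -1.29. It was counted in 31.9% of signature cells against 54.3% of other cells, or 15.2% of signature cells against 29.7% of other cells at 5000 counts. Ctsg, another granule protease gene, was at 2.10 CPM in signature cells against 6.02 CPM in other cells (-1.18). The exception was F13a1, a coagulation factor gene of monocytes, at 48.8 CPM in signature cells against 39.7 CPM in other cells (0.29). Ly6c2, a monocyte surface gene placed in an interferon list, was at 32.2 CPM in signature cells (29 to 35.6) against 36.0 CPM in other cells (35.1 to 37), a log2 ratio of -0.16, with 71.7% of its signature-cell counts in 10 cells. Its direction turned in cells without a count of Ms4a7 or Folr2, with 62.6 CPM in signature cells against 43.7 CPM in other cells.

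Of lists for stress, early-response genes had a median of 0.26, p53 targets -0.07 and the unfolded protein response 0.06, beside -0.04 over all genes. Atf3 and Ddit3, stress-induced transcription factor genes, were the members past 2-fold, at 60.9 CPM in signature cells against 27.4 CPM in other cells (1.13) and 56.5 CPM in signature cells against 27.2 CPM in other cells (1.03). Egr1 was at 7.10 CPM in signature cells against 11.6 CPM in other cells (-0.64) and Cdkn1a, the p53 target that codes for p21, at 366 CPM in signature cells against 310 CPM in other cells (0.24).

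Outside the lists, the largest ratios belonged to Folr2, Cd72 at 16.7 CPM in signature cells against 1.82 CPM in other cells (2.64), and Atp6v0d2, a proton pump subunit gene, at 17.1 CPM in signature cells against 2.02 CPM in other cells (2.58). The 10 highest signature cells held 52.6% of the Cd72 counts and 62.1% of the Atp6v0d2 counts of the group. Cd72, under 2 CPM in other cells, passed the 2 CPM limit only through the signature cells. Cd72 overlaps Tesk1 on the other strand. At the low end Xist, the X-inactivation RNA, was furthest, at 0.964 CPM in signature cells against 7.96 CPM in other cells (-2.19), followed by Pdgfrl with 3 counts, at 0.263 CPM (0.0542 to 0.768) in signature cells against 3.20 CPM in other cells (-1.73), Dipk1b (-1.49) and Gfod1 (-1.36). Rflnb, F10, Ccdc85c, Pitpnm2, Elovl6, L3hypdh, Dna2, Nr0b2 and Atrnl1 lay between -1.23 and -1.05.

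The number of interferon-list genes with a count was taken per cell after each cell was thinned to 5000 counts. Interferon-signature cells had a median of 31 such genes, with the 10th to 90th percentile at 20 to 43 and the highest at 71. Other cells had a median of 17, with 12 to 24 and a highest of 57. Of the signature cells, 281 (73.6%) lay above the other cells' 90th percentile, and 24 lay at or below the other cells' median. In turn 68 other cells lay above the median of the signature cells, so the 2 distributions overlapped and the limit of the rule parted them only roughly.

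**Figure D4:**
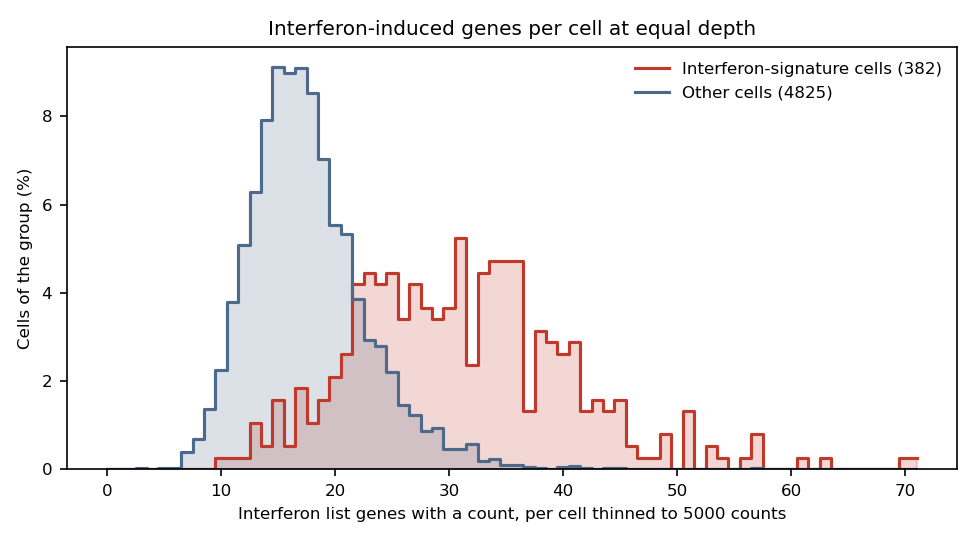
Share of cells in percent (vertical) by the number of interferon-list genes with a count after thinning to 5000 counts (horizontal). The 382 signature cells (red) centre on 31 genes and the 4825 other cells (blue) on 17, with overlap between 10 and 57 genes.

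Levels were also taken over 6 steps of the rule genes. The steps are cut on the same values that chose the cells, so the levels along them are a description and support nothing further. Summed interferon genes stood at 7132 CPM in cells with no count of the rule genes, 8287 CPM in those with up to 100 CPM of them and 10224 CPM in those at 100 to 200 CPM. Within the signature cells they were at 12360 CPM in the 153 cells at 200 to 400 CPM, 14156 CPM in the 121 cells at 400 to 800, and 18855 CPM in the 108 cells at 800 or more. Irf7 was at 6.04, 13.2, 36.5, 52.6, 99.7 and 152 CPM over these 6 steps. Ifit1 was concentrated at the top, with 93.6 CPM in the highest step and 22.9 CPM in the one below. Cxcl10 did not rise at each step, at 0.255, 0.572, 0.107, 8.40, 2.05 and 137 CPM. Ms4a7 was at 6.59, 15, 45.6, 72.0, 104 and 221 CPM, whereas Prtn3 was at 124, 64.6, 55.3, 40.6, 41.1 and 39.6 CPM and hence lowest, and about level, within the signature cells. Ncl stood at 2259 CPM in the lowest step and 1353 CPM in the highest. Median depth differed among the steps, from 20800 counts in cells without the genes to 39201.5 counts in those with up to 100 CPM, and its part in these values was not tested.

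**Figure D5:**
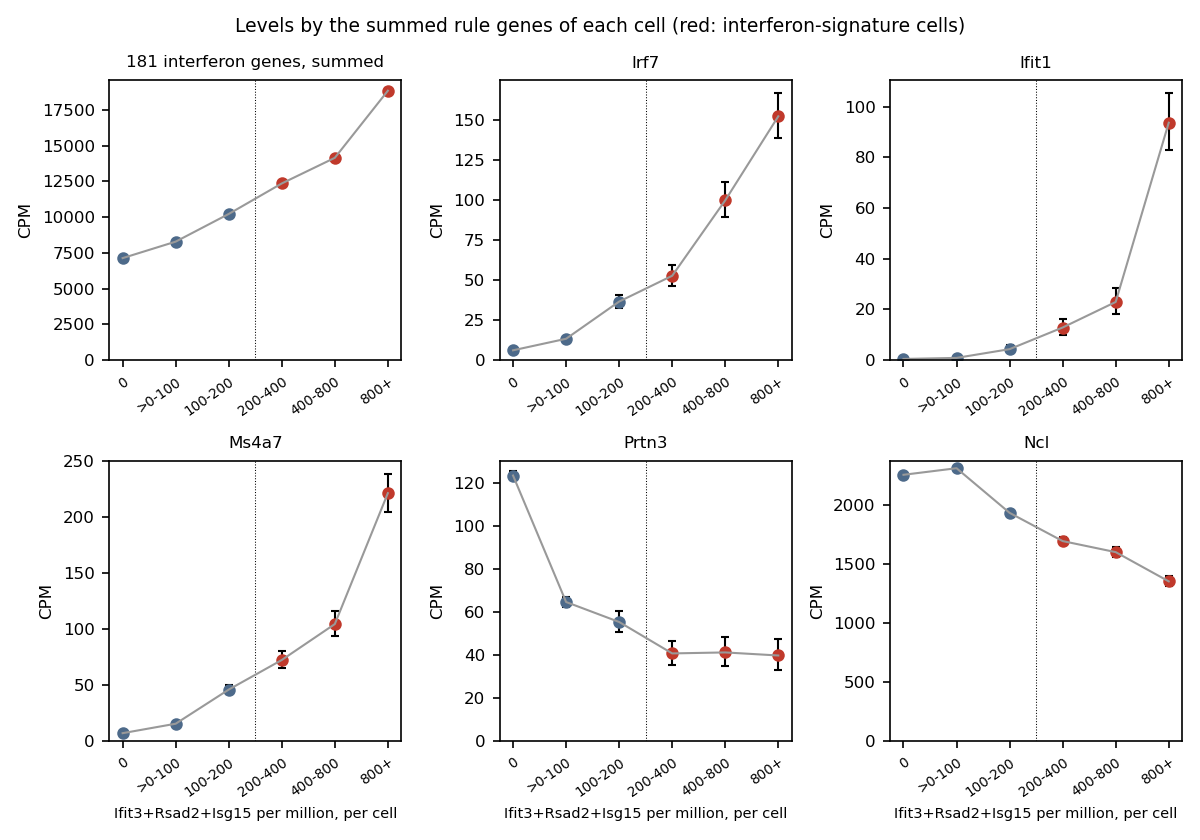
Levels in CPM (vertical) by the summed Ifit3, Rsad2 and Isg15 level of each cell in CPM (horizontal, 6 steps), with exact 95% Poisson intervals; red points are signature cells, and the dotted line is the limit at 200 CPM. Interferon genes and Ms4a7 are highest in the last step, with Irf7 at 152 CPM, and Ncl is lowest there; the 38 cells over the limit with under 3 counts are not drawn.

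The signature cells differed among themselves by how many of the 3 genes they carried. This division also uses the genes of the rule, so its values are a description only. The 120 cells with all 3 genes had a median of 38 interferon-list genes at 5000 counts, and the 143 cells with 1 gene had 24. Ifit1 was at 75.5 CPM in the cells with all 3 genes and 6.86 CPM in those with 1, and Cxcl10 at 93.8 CPM in the cells with all 3 and 3.43 CPM in those with 1. Irf7 differed less, at 115 CPM in the cells with all 3 and 62.3 CPM in those with 1. Macrophage genes went with this. Ms4a7 was at 192 CPM in the cells with all 3 and 37.7 CPM in those with 1, and Apoe at 5123 CPM in the cells with all 3 and 1604 CPM in those with 1. Median depth was 31998 counts in the cells with all 3 genes and 22351 counts in those with 1, and its part in these values was not tested.

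Since mature macrophage genes and interferon genes were both higher in the pooled signature cells, the comparison was repeated among cells with and without a count of Ms4a7 or Folr2. Of the 1037 cells with such a count, 191 (18.4%, 16.1% to 20.9%) met the rule, and of the 4170 cells without one, 191 (4.58%, 3.97% to 5.26%) did. In both, the signature cells were chosen by 3 interferon genes, so nothing is read from the interferon values beyond their size. The counts below may include genes that passed the 2 CPM limit only through the signature cells. Among cells with a count, 78 of 141 tested interferon genes were at least 2-fold higher, beside 2.42% of all genes, with a median of 1.13. Among cells without one, 70 of 131 were, beside 1% of all genes, with a median of 1.06. Among cells with a count, Irf7 was at 96.3 CPM in signature cells against 14.6 CPM in other cells. Among cells without one, it was at 89.2 CPM in signature cells against 9.07 CPM in other cells.

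Outside the interferon genes, several list medians were nearer 0 among the cells without a count. The median of the macrophage list was 0.73 among cells with a count and 0.20 among cells without one. The list holds Ms4a7, a gene of the division, so 20 of its genes were tested with a count and 19 without. Of these, 4 and 1 were at least 2-fold higher, beside 2.42% and 1% of all genes. The median of the lipid list was 1.02 and 0.27, with 8 and 0 of 15 genes at least 2-fold higher. With a count, Spp1 was at 2112 CPM in signature cells against 1039 CPM in other cells, and without one at 516 CPM in signature cells against 341 CPM in other cells. Apoe was at 5896 CPM in signature cells against 2389 CPM in other cells where a count was present. Where none was present it was at 1168 CPM in signature cells against 1305 CPM in other cells, a log2 ratio of -0.16. Median depth with a count was 26422 in signature cells and 36535.5 in other cells, and its part in these values was not tested. Myc targets had medians of -0.67 with a count and -0.21 without, and S phase genes -0.76 and -0.31. The unfolded protein response list went the other way, at -0.08 with a count and 0.17 without, and the NF-kB list had 0.48 with a count and 0.54 without. Prtn3 was lower in both, with a count at 16.6 CPM in signature cells against 43.9 CPM in other cells and without one at 66.6 CPM in signature cells against 118 CPM in other cells.

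Cells with no count of 5 mitotic genes (Mki67, Top2a, Ube2c, Birc5 and Ccnb1) were compared in the same way. They were 74 signature cells and 290 other cells, so that 20.3% (16.3% to 24.8%) met the rule. In them 82 of 142 tested interferon genes were at least 2-fold higher, beside 5.53% of all genes, with a median of 1.19. The signature cells were again chosen by 3 interferon genes, so nothing is read from this count beyond its size. Myc targets had a median of -0.29 and the macrophage list one of 0.70. These cells were shallow, with medians of 11709 counts in signature cells and 10078 counts in other cells, and the part of depth in these values was not tested.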

How the data were processed

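Transcripts were measured in single cells with a DNBelab C4 droplet system, per the labels. The authors deposited raw counts of each gene in each barcode, without normalization, and the file headers name PISA 0.12 as the program. The submitters' processing notes name Cell Ranger and mm10 and give neither a role. No source used here states the aligner settings, the annotation, how cells were called, whether strand was used, or whether the counts are of unique molecular identifiers. If they are of reads, the intervals are too narrow.

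The matrix held 20034 genes, 6837 barcodes and 160606727 counts, and 1630 barcodes missed a limit: 47 had under 500 genes, 50 over 15% mitochondrial counts and 1617 under 5000 counts, with overlap. Doublets were not called, and cells under 50000 counts were an alternative. Counts were summed over the cells of a group and given as CPM without the 3 rule genes. Log2 ratios used a pseudocount of 1 CPM, for genes at 2 CPM or more over all compared cells. Levels have exact 95% Poisson intervals and shares exact Clopper-Pearson intervals. Where no cell had a count, the limit given is 3 divided by the number of cells. For shares and genes per cell at equal depth, each cell was thinned once to 5000 counts. With 1 sample no test was made. The steps were tested on simulated data with known changes.

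The members and lists were chosen with earlier results of these data known. Genes were named by a rule: the 20 highest and 15 lowest ratios, each interferon-list gene at least 2-fold higher, and in other lists up to 4 genes with the largest ratio and the one highest in CPM. Some genes that it names are left out of the text. Further genes were named after their values were seen. Levels were not divided by transcript length, so no order of levels between genes is given. A symbol without a row was not analysed here. Of the symbols, 19659 are in GENCODE M21, from which overlaps were taken. Promoters are from RefSeq. Python 3.11.15 was used with numpy 2.4.6, scipy 1.17.1, pandas 2.3.3 and matplotlib 3.10.9. Besides 17 other settings, 4 more were added after these results were seen.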

Additional observations from a re-analysis of the deposited data

Results flagged for a closer look

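Barcodes that the comparison left out for their depth were looked at in the same way. Of 1544 barcodes that met the limits on genes and mitochondrial counts but had under 5000 counts, 34 met the limits on the 3 rule genes, with a median of 3655 counts. Their summed interferon-list genes stood at 16323 CPM (15598 to 17072), against 7641 CPM (7551 to 7731) in the other 1510 shallow barcodes. Irf7 was at 146 CPM (84.8 to 233) in the 34 barcodes against 15.8 CPM (12 to 20.5) in the 1510. The 34 barcodes were chosen by the same 3 genes as the signature cells, so these values are a description and support nothing further. No control sample was analysed here.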

How the results depend on the processing

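All 78 interferon-list genes at least 2-fold higher stayed above 0 in each of the 21 alternatives, and their number lay between 58 and 95 except with a limit of 10 CPM, where 44 of 89 passed. Median interferon-list genes per signature cell lay between 27 and 39. The share of cells meeting the rule was 4.40% with 400 CPM, 4.59% with at least 2 of the 3 genes, 6.55% with Isg15 alone, 1.75% with Ifit3 and Rsad2, 20.3% in cells without mitotic counts, 18.4% in cells with and 4.58% in cells without a Ms4a7 or Folr2 count. Genes at least 2-fold higher numbered 427 with Ifit3 and Rsad2, 537 without mitotic counts, 112 with a pseudocount of 10 CPM, 126 with a limit of 10 CPM and 100 in cells without a Ms4a7 or Folr2 count, against 224. Genes at least 2-fold lower, 22 as reported, were the least stable: 82 with 400 CPM, 57 with at least 2 genes, 380 with Ifit3 and Rsad2, 35 against cells without rule counts, 203 at 5000 counts, 44 as a mean over cells, 53 without ribosomal and mitochondrial genes in the total, 518 without mitotic counts, 65 and 1 with pseudocounts of 0.1 and 10 CPM, 8 with a limit of 10 CPM, 134 in cells with a Ms4a7 or Folr2 count and 114 in barcodes named with the number 1. Groups were smaller in several of these (91 and 74 signature cells in the widest), and the cause was not tested otherwise. Of 116 genes picked by the naming rule and at least 2-fold higher or lower, 1 changed sign: Apoe, at -0.16 in cells without a Ms4a7 or Folr2 count. Of the 64 under 2-fold, 17 changed sign in some alternative, and so did Ly6c2, which that rule did not pick, in the same cells. List medians of the macrophage (0.20 to 0.90), lipid (0.27 to 1.49), S phase (-0.87 to -0.31) and Myc target (-0.67 to -0.21) lists kept their sign in all alternatives, while those of G2 and M phase (-0.45 to 0.04) and class II (-0.69 to 0.71) did not. The divisions by Ms4a7 or Folr2, by barcode name and without the 10 highest cells were added after seeing the data. Without those 10 cells 74 of 134 interferon-list genes were at least 2-fold higher. The median of all tested genes moved between -0.10 and 0.04. No paired analysis was possible because there is 1 matrix without replicates. Depth limits low genes most: Pdgfrl rested on 3 counts in signature cells.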

Other observations

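Xist, the lowest gene in ratio, was at 3 or more counts in 0 of 382 signature cells, for which the limit is a share of 0.785%, and in 99 of the 4825 other cells. The highest Xist count was 2 in a signature cell and 34 in another cell. Those 99 cells had a median of 50839 counts, and 15 of them (15.2%) had a count of any of 4 Y-linked genes, against 43.2% of all other compared cells. Y-linked counts were found in 46.9% of signature cells and 42.4% of other cells. In the 99 cells the interferon-list genes summed to 7542 CPM, against 8229 CPM in all remaining cells. Irf7 was at 7.92 CPM (5.78 to 10.6) in the 99 cells against 16.7 CPM (16 to 17.4) in the rest, and Ms4a7 at 5.11 CPM (3.42 to 7.33) in the 99 cells against 20.4 CPM (19.7 to 21.2) in the rest. Labels that would tie cells to a sex or culture were not analysed here.

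Pdgfrl, the next lowest gene, was counted in 135 cells, and 10 cells held 58.2% of its counts, with 70 in the highest.

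Kdr, an endothelial receptor gene, was at 6.92 CPM in signature cells and 1.67 CPM in other cells (log2 ratio 1.57), while Pecam1 was at 0.614 CPM in signature cells against 0.220 CPM in other cells. Further genes outside the lists stood higher too: Trafd1, a regulator of innate signalling, was at 55.9 CPM in signature cells against 12.3 CPM in other cells, Pirb, an inhibitory receptor gene that binds class I molecules, at 46.7 CPM in signature cells against 12.5 CPM in other cells, and the chemokine Ccl6 at 129 CPM in signature cells against 29.4 CPM in other cells.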
